A study of Mus musculus with 18 samples.

Results

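The Hox genes were followed across embryonic fibroblasts that were cultured with or without the growth factor TGF-β1. A gene was counted as a member when the array annotation gave its probe set a single symbol made of Hox, a cluster letter from a to d and a number. This rule found 33 of the 18194 genes with a single symbol: 9 in the Hoxa cluster on chromosome 6, 9 in the Hoxb cluster on chromosome 11, 7 in the Hoxc cluster on chromosome 15 and 8 in the Hoxd cluster on chromosome 2. Each gene was represented by the probe set with the highest mean over the 18 arrays. Hoxd4 and Hoxb8 had only probe sets shared with another symbol and were not members.

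The cells were primary mouse embryonic fibroblasts, a mixed culture prepared from 14-day embryos after the head and liver had been taken out. There were 6 embryos, 3 of them wild type and 3 labelled as knock-outs of NFI-C, a transcription factor of the nuclear factor I family. From each embryo 1 culture was left untreated, 1 was given 12.5 ng/ml TGF-β1 for 1 h and 1 for 10 h, so that the 6 groups held 3 arrays each. All groups shared the same preparation and the same period in medium with AlbuMAX and an insulin, transferrin and selenium mix before treatment. The labels do not give the strain, the allele or the time at which untreated cultures were harvested, so the effect of TGF-β1 and that of time in culture cannot be told apart. Values are listed in the order of embryos 1, 2 and 3, and embryos of the 2 genotypes with the same number are different animals.

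Hox genes encode homeodomain transcription factors that give cells their position along the head-to-tail axis and along the limbs. They lie in 4 clusters, and in each cluster the gene order on the chromosome follows the order of expression: genes with low numbers (the 3' end) are active towards the head, genes with high numbers (the 5' end) towards the tail and the tips of the limbs. Genes of different clusters with the same number are paralogues. Fibroblasts keep much of the Hox pattern of the body site they came from when they are grown in culture, and TALE homeodomain proteins of the Pbx, Meis and Pknox families bind DNA together with Hox proteins.

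The arrays gave 1 log2 expression value per probe set and array, and these values ranged from 2.49 to 14.47. Arrays of the same group correlated at 0.987 to 0.995. All 12 fibroblast markers looked at, among them the collagen genes Col1a1 and Col3a1, read above the 40th percentile on each of the 18 arrays. So did all 10 tested macrophage and blood cell markers, among them Lyz2 at 11.26 to 13.68, so the cultures did not read as fibroblasts alone. The brightest probe set of Nfic, the gene targeted in the knock-outs, read 10.19 to 10.77 in wild-type cells and 9.89 to 10.72 in cells labelled as knock-outs, and those ranges overlap. Which exons the deletion removes is not in the labels, so this probe set does not check the genotype, and "knock-out" below means only what the labels say.

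Of the 33 genes, 27 were tested because they lay above the 40th percentile of at least 3 arrays. All 9 Hoxa genes and all 7 Hoxc genes passed this filter, as did 6 of the 9 Hoxb genes and 5 of the 8 Hoxd genes. Of the tested genes, 24 lay above the percentile on all 18 arrays, and the exceptions were Hoxa4 on 6 arrays, Hoxa13 on 15 and Hoxc13 on 16. The 6 genes left out were Hoxb1, Hoxb7, Hoxb13, Hoxd1, Hoxd3 and Hoxd12, whose values ran from 2.93 to 4.21 over all arrays. A probe set shared by Hoxb8 and Hoxb7, which cannot tell them apart, read 5.12 to 6.01. It did not pass at 10 h of TGF-β1 against untreated, with log2 differences of -0.01 in wild-type and -0.02 in knock-out cells. Of the 33 members, 11 had more than 1 probe set. Brightness depends on the probe as well as on the transcript, so the level of a gene is compared below only with its own level in other samples.

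The 250 bases upstream of the transcription start are shown for 4 members, with RefSeq windows on build GRCm38.p6. Hoxa7, Hoxa9 and Hoxc4 were lower after 10 h of TGF-β1 and Hoxb4 did not pass the test. Capitals mark CAGAC, the core to which the SMAD proteins of TGF-β signalling bind, and TTGGC, the core to which NFI proteins bind, searched on both strands, where the other strand reads GTCTG and GCCAA. The Hoxa7 window is chr6:52218574-52218823 on the minus strand, that of Hoxa9 is chr6:52227371-52227620 on the minus strand, that of Hoxc4 is chr15:103034145-103034394 on the plus strand and that of Hoxb4 is chr11:96318017-96318266 on the plus strand.
Hoxa7: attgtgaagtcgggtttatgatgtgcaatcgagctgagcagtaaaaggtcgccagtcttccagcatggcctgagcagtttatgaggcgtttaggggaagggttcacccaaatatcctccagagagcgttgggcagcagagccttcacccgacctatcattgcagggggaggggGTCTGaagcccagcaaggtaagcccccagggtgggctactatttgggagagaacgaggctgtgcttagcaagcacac
Hoxa9: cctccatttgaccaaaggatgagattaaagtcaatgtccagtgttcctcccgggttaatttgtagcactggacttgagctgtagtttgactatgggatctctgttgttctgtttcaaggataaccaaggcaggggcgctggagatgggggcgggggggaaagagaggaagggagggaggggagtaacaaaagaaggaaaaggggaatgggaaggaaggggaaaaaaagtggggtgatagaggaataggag
Hoxc4: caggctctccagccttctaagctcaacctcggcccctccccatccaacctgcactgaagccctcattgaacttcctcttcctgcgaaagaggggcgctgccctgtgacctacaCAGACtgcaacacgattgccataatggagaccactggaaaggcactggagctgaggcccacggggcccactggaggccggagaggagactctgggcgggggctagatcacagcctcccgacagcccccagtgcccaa
Hoxb4: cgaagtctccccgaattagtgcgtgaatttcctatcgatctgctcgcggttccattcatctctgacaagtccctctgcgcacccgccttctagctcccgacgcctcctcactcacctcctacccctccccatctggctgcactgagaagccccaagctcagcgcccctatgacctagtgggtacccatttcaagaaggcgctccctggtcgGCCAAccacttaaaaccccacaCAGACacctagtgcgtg

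Hoxa7 and Hoxc4 each held 1 CAGAC and no TTGGC, Hoxa9 held neither, and Hoxb4 held 1 of each. Windows were found for 19 of the 33 members, with 21 windows in all, since Hoxa10 and Hoxd11 had 2 each. Of the members that passed at 10 h, Hoxb2, Hoxc5, Hoxc6, Hoxc8 and Hoxc10 were not matched to a window. Hoxb1, Hoxd1, Hoxd3 and Hoxd12 were matched but not tested, and each of their windows held TTGGC, so the shares below are not those of the genes that responded. CAGAC was found in 6 of the 21 windows (28.6%) against 42.2% of the 32851 windows of all genes. TTGGC was found in 13 of 21 (61.9%) against 41.5%. The full NFI palindrome, in which cores on opposite strands face each other, was in none of the Hox windows and in 0.0365% of all windows. TGATNNAT, a motif bound by Hox and Pbx proteins together, was in 3 of 21 (14.3%) against 7.68%. These matches describe letters in the windows, not bound sites.

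After 10 h of TGF-β1 9 genes of the Hoxa and Hoxc clusters were lower and Hoxb2 was higher, in wild-type and in knock-out cells. In wild-type cells 9 of the 27 tested Hox genes fell (33.3%), where 18.8% of all 13679 tested genes fell. They were Hoxa2, Hoxa5, Hoxa7, Hoxa9, Hoxc4, Hoxc5, Hoxc6, Hoxc8 and Hoxc10, by 1.55 to 2.49 times. Of the tested members, Hoxb2 alone rose (3.70% of the tested members, against 14.9% of all genes). In knock-out cells 11 of 27 fell (40.7%, against 20.7% of all genes), namely the same 9 with Hoxa10 and Hoxd9 added, and again Hoxb2 rose (3.70%, against 13.9%).

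The median log2 difference of the 27 Hox genes was -0.32 in wild-type cells, where that of all tested genes was 0.01, and -0.40 in knock-out cells, where that of all genes was -0.03. Counted in either direction, the 10 members that passed in wild-type cells (37.0%) lie near the 33.7% of all genes that passed, and the 12 in knock-out cells (44.4%) compare with 34.7%. Group means were compared in limma with moderated tests, a difference passed at an adjusted p below 0.05, and the adjustment (Benjamini-Hochberg) covered all 13679 genes. In cultures of mixed cells, fewer cells of a type and less RNA per cell cannot be told apart. In wild-type cells the 10 h values of 10 members lay wholly below the untreated ones (23.3% of all genes) and those of 1 wholly above (21.0%), and in knock-out cells those of 12 below (25.7%) and of 2 above (19.4%). All 10 members that passed in wild-type cells and 10 of the 12 in knock-out cells were among these.

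**Figure D1:**
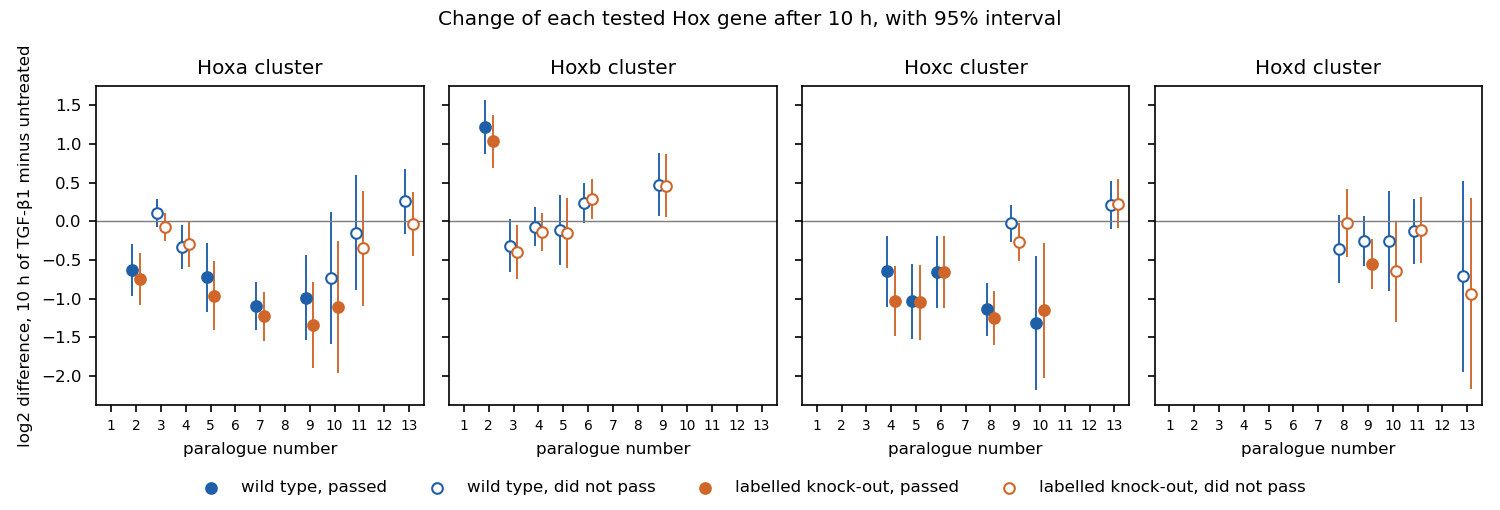
Log2 difference between 10 h of TGF-β1 and untreated cells for each tested Hox gene (vertical axis) against its paralogue number (horizontal axis), by cluster. Points are group differences with their 95% interval from limma, blue for wild type and orange for the labelled knock-out, filled where the adjusted p was below 0.05. Filled points lie below 0 in the Hoxa and Hoxc panels, from Hoxa2 to Hoxa10 and from Hoxc4 to Hoxc10, and for Hoxd9 in the knock-out, and Hoxb2 at 1.21 and 1.03 is the filled point above 0.

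In the Hoxa cluster 4 of 9 genes fell in wild-type cells and 5 of 9 in knock-out cells. Hoxa2, which patterns the hindbrain and the second branchial arch, read 5.27, 5.55 and 4.96 untreated, 5.51, 5.24 and 5.00 at 1 h and 4.53, 4.70 and 4.65 at 10 h in wild-type cells. Knock-out cells gave 5.52, 5.63 and 5.24 untreated, 5.37, 5.57 and 5.19 at 1 h and 4.85, 4.56 and 4.73 at 10 h. Every 10 h value lay below every untreated and 1 h value of its genotype. The log2 difference at 10 h was -0.63 ± 0.16 (limma standard error, n = 3 per group) with an adjusted p of 0.00605 in wild-type cells and -0.75 ± 0.16 with 0.00176 in knock-out cells.

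Hoxa5, which is needed for the lung and the neck skeleton, read 9.51, 9.53 and 9.19 untreated, 9.59, 9.49 and 9.18 at 1 h and 8.62, 8.62 and 8.82 at 10 h in wild-type cells. In knock-out cells the values were 9.31, 9.59 and 9.53 untreated, 9.29, 9.81 and 9.57 at 1 h and 7.92, 8.98 and 8.64 at 10 h. The untreated and 10 h groups did not overlap, and the lowest value of all was that of knock-out embryo 1 at 10 h. The differences were -0.73 ± 0.21 (adjusted p = 0.0145) and -0.96 ± 0.21 (adjusted p = 0.00220).

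Hoxa7, a gene of the thoracic region, also fell in both genotypes. In wild-type cells it read 7.83, 7.92 and 7.93 untreated, 7.95, 7.87 and 7.87 at 1 h and 6.87, 6.77 and 6.75 at 10 h. The knock-out values were 7.88, 8.18 and 7.84 untreated, 7.70, 8.32 and 7.73 at 1 h and 6.54, 6.98 and 6.69 at 10 h, with embryo 2 the highest in all 3 conditions. The 10 h values of all 6 embryos lay below all their other values. The difference was -1.10 ± 0.15, or 2.14 times lower (adjusted p = 3.84e-05), in wild-type cells and -1.23 ± 0.15, or 2.35 times lower (adjusted p = 1.17e-05), in knock-out cells.

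Hoxa9, active in the posterior trunk and in blood progenitors, read 8.26, 8.59 and 8.97 untreated, 7.82, 8.68 and 8.82 at 1 h and 7.26, 7.88 and 7.72 at 10 h in wild-type cells. Embryo 1 was the lowest in each condition. In knock-out cells the values were 8.54, 9.0 and 8.90 untreated, 8.40, 8.97 and 8.71 at 1 h and 7.15, 7.76 and 7.48 at 10 h. Untreated and 10 h values did not overlap in either genotype, with differences of -0.99 ± 0.26 (adjusted p = 0.00829) and -1.35 ± 0.26 (adjusted p = 8.59e-04).

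Hoxa10, which patterns the lumbar skeleton and the uterus, read 5.34, 6.57 and 6.89 untreated, 5.71, 6.30 and 6.82 at 1 h and 4.59, 6.13 and 5.87 at 10 h in wild-type cells. Here embryo 1 was the lowest in each condition, and untreated and 10 h values overlapped. The wild-type difference of -0.74 ± 0.40 did not pass (adjusted p = 0.170). In knock-out cells the values were 6.73, 6.63 and 6.34 untreated, 6.52, 6.83 and 7.11 at 1 h and 5.14, 5.51 and 5.73 at 10 h, without overlap, and the difference of -1.11 ± 0.40 passed (adjusted p = 0.0434). The remaining 4 Hoxa genes did not pass in either genotype in this fit. With the embryo as a replicate block, given below, Hoxa4 passed lower in both genotypes and Hoxa10 also in wild-type cells. Hoxa3 and Hoxa4, of the neck region, gave 0.11 ± 0.09 and -0.33 ± 0.14 in wild-type cells, and Hoxa11 and Hoxa13, of the distal limb, gave -0.15 ± 0.35 and 0.26 ± 0.20.

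In the Hoxb cluster 1 of 6 tested genes rose and none fell in each genotype in the fit without an embryo block. Hoxb2, which acts in the hindbrain and in the facial motor neurons, read 7.32, 7.61 and 7.24 untreated, 8.13, 7.96 and 7.91 at 1 h and 8.93, 8.52 and 8.37 at 10 h in wild-type cells. Its values in knock-out cells were 7.75, 7.89 and 7.26 untreated, 8.19, 8.25 and 7.95 at 1 h and 8.74, 8.60 and 8.66 at 10 h. The values stepped up from untreated to 1 h to 10 h in all 6 embryos, and the 3 conditions of a genotype did not overlap. At 10 h the difference was 1.21 ± 0.16, or 2.32 times higher (adjusted p = 3.95e-05), in wild-type cells and 1.03 ± 0.16, or 2.04 times higher (adjusted p = 1.51e-04), in knock-out cells.

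None of the other 5 tested Hoxb genes passed at 10 h in the limma fit, where 1 of these 5 in wild-type cells and 3 in knock-out cells had an unadjusted p below 0.05. Hoxb9, of the posterior thorax, differed by 0.47 ± 0.19 in wild-type cells and 0.46 ± 0.19 in knock-out cells, with adjusted p of 0.0700 and 0.0777. Hoxb6 differed by 0.23 ± 0.12 and 0.29 ± 0.12, with 10 h above untreated in all 6 embryos. Hoxb4, a gene of the neck and of blood stem cells, differed by -0.07 ± 0.12 and -0.14 ± 0.12, Hoxb5 by -0.12 ± 0.21 and -0.15 ± 0.21, and Hoxb3 by -0.32 ± 0.16 and -0.40 ± 0.16. With the embryo as a replicate block, given below, Hoxb3 passed lower in both genotypes (limma adjusted p = 0.0271 and 0.00741).

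In the Hoxc cluster 5 of 7 genes fell in each genotype. Hoxc4, the most 3' of them, read 7.45, 6.91 and 7.09 untreated, 7.60, 7.11 and 7.61 at 1 h and 6.66, 6.53 and 6.31 at 10 h in wild-type cells. The knock-out embryos read 6.80, 7.32 and 7.77 untreated, 7.03, 7.14 and 7.56 at 1 h and 6.29, 6.26 and 6.25 at 10 h. The 10 h values formed a low group in both genotypes that did not overlap the untreated values. The difference was -0.65 ± 0.21 (adjusted p = 0.0290) in wild-type and -1.03 ± 0.21 (adjusted p = 0.00152) in knock-out cells.

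Hoxc5, its neighbour, read 7.61, 7.61 and 7.78 untreated, 7.73, 7.61 and 7.82 at 1 h and 6.59, 6.57 and 6.74 at 10 h in wild-type cells. For knock-out cells the values were 7.37, 7.94 and 7.46 untreated, 7.47, 8.21 and 7.47 at 1 h and 6.00, 7.02 and 6.61 at 10 h. Knock-out embryo 2 was again the highest of its genotype in all 3 conditions. The difference was -1.04 ± 0.23 (adjusted p = 0.00240) in wild-type and -1.05 ± 0.23 (adjusted p = 0.00208) in knock-out cells.

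Hoxc6, a gene of the upper thorax, read 8.52, 8.72 and 8.43 untreated, 8.57, 8.60 and 8.41 at 1 h and 7.87, 7.97 and 7.84 at 10 h in wild-type cells. Knock-out arrays read 8.43, 8.94 and 8.22 untreated, 8.66, 9.25 and 8.35 at 1 h and 7.54, 8.28 and 7.81 at 10 h. The wild-type groups did not overlap, while in knock-out cells embryo 2 at 10 h lay above embryo 3 untreated. The difference was -0.66 ± 0.22 (adjusted p = 0.0287) in wild-type and -0.65 ± 0.22 (adjusted p = 0.0298) in knock-out cells.

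Hoxc8, which specifies thoracic vertebrae and brachial motor neurons, read 9.38, 8.88 and 9.18 untreated, 9.59, 9.33 and 9.32 at 1 h and 8.23, 8.05 and 7.75 at 10 h in wild-type cells. Knock-out cells gave 9.02, 8.95 and 9.26 untreated, 9.46, 9.10 and 9.54 at 1 h and 7.59, 7.95 and 7.94 at 10 h. Cultures at 10 h lay below all untreated and 1 h cultures in every embryo. The difference was -1.14 ± 0.16, or 2.2 times lower (adjusted p = 6.71e-05), in wild-type and -1.25 ± 0.16, or 2.38 times lower (adjusted p = 2.47e-05), in knock-out cells.

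Hoxc10, expressed in the hindlimb and the lumbar cord, read 7.27, 7.83 and 7.81 untreated, 7.23, 7.69 and 7.97 at 1 h and 6.09, 6.47 and 6.41 at 10 h in wild-type cells. The knock-out values were 7.41, 6.78 and 8.28 untreated, 7.54, 6.89 and 8.39 at 1 h and 5.85, 6.00 and 7.15 at 10 h. Knock-out embryo 3 was so much higher than embryo 2 that its 10 h value lay above the untreated value of embryo 2. The difference was -1.32 ± 0.41, or 2.49 times lower (adjusted p = 0.0211), in wild-type and -1.15 ± 0.41 (adjusted p = 0.0390) in knock-out cells. Hoxc9 and Hoxc13, the latter a gene of hair and nail, did not pass, with -0.03 ± 0.11 and 0.20 ± 0.15 in wild-type and -0.27 ± 0.11 and 0.23 ± 0.15 in knock-out cells.

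**Figure D2:**
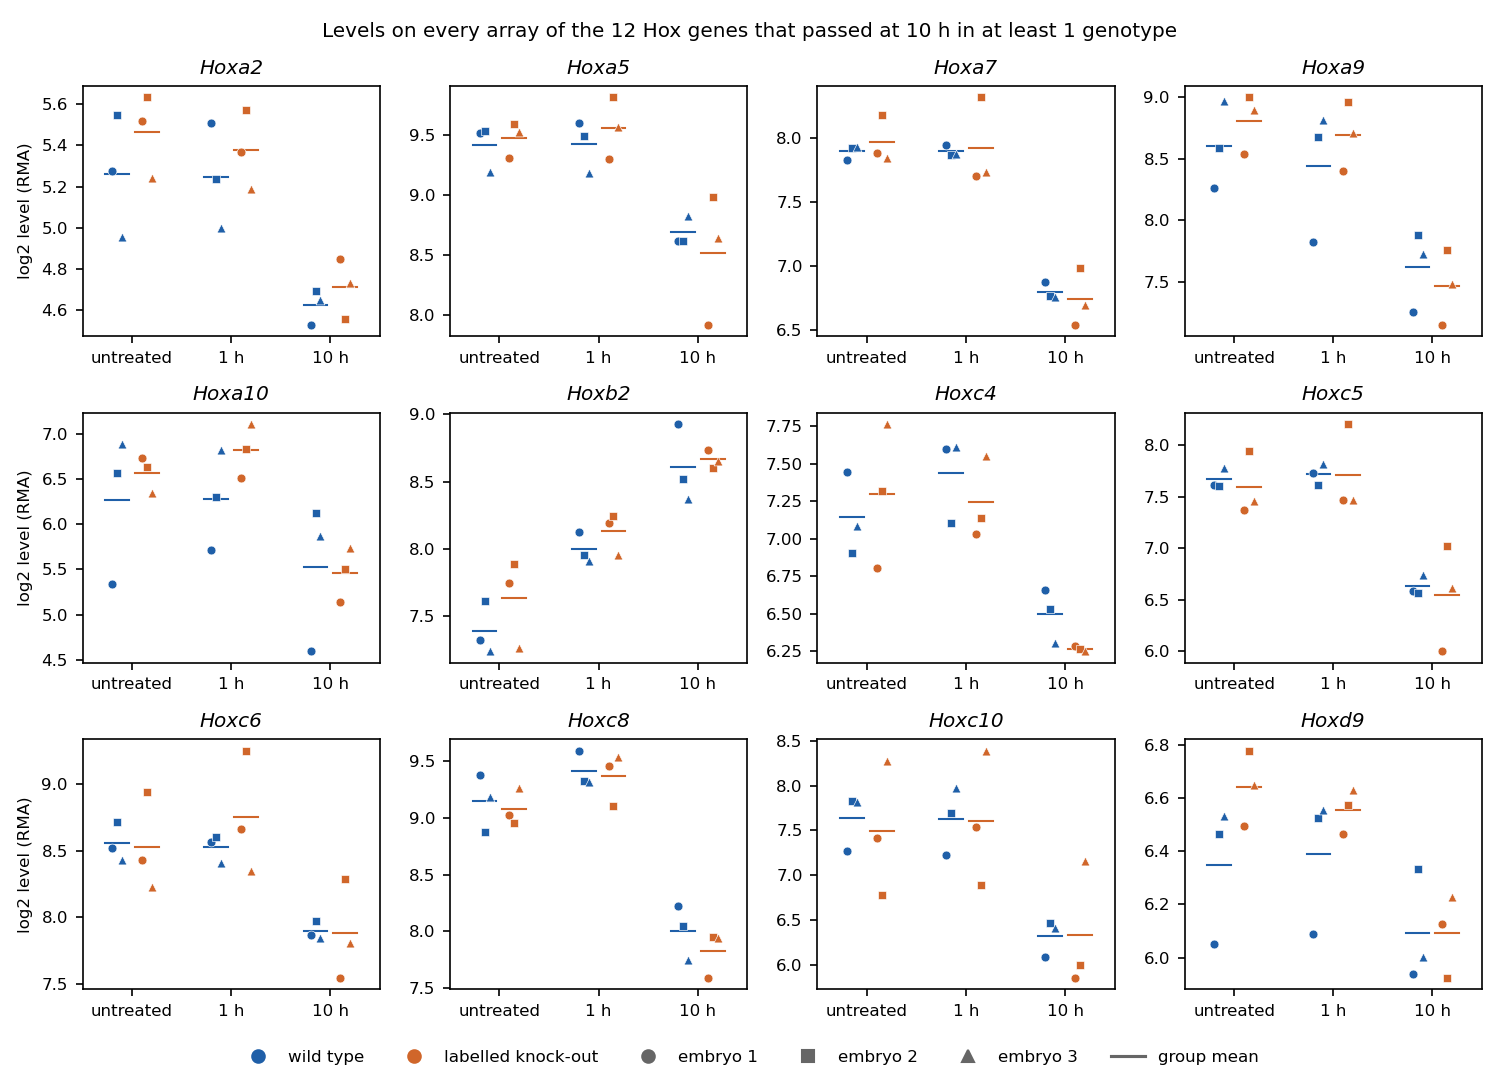
Log2 level (vertical axis) on every array in untreated cells and after 1 h and 10 h of TGF-β1 (horizontal axis) for the 12 Hox genes that passed at 10 h in at least 1 genotype. Blue is wild type, orange the labelled knock-out, the marker shape gives the embryo and lines are means of 3 arrays. The 10 h points lie below the untreated points except for Hoxb2, where they lie above, and for single embryos of Hoxa10, Hoxc6, Hoxc10 and Hoxd9 that overlap.

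In the Hoxd cluster none of the 5 tested genes passed in wild-type cells in the limma fit, where none had an unadjusted p below 0.05, and 1 fell in knock-out cells. That gene was Hoxd9, of the lumbosacral region, which read 6.50, 6.78 and 6.65 untreated, 6.47, 6.57 and 6.63 at 1 h and 6.13, 5.92 and 6.23 at 10 h in knock-out cells. Its 10 h values lay below all untreated ones, with a difference of -0.55 ± 0.15 (adjusted p = 0.0107). In wild-type cells it read 6.05, 6.47 and 6.53 untreated, 6.09, 6.53 and 6.56 at 1 h and 5.94, 6.33 and 6.00 at 10 h, with overlap, and the difference of -0.26 ± 0.15 did not pass (adjusted p = 0.205). The difference between the responses of the genotypes was -0.29 ± 0.22 and did not pass (adjusted p = 0.999). All 5 Hoxd genes had differences below 0 in both genotypes, from -0.71 for Hoxd13 to -0.13 for Hoxd11 in wild-type cells and from -0.94 for Hoxd13 to -0.02 for Hoxd8 in knock-out cells. With the embryo as a replicate block, given below, Hoxd13 passed lower in wild-type cells (limma adjusted p = 0.0305). With that block Hoxd9, Hoxd10 and Hoxd13 passed lower in knock-out cells (0.00153, 8.94e-04 and 0.00696), so the falls were not confined to the Hoxa and Hoxc clusters.

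The calls were unequally firm. Hoxa7, Hoxb2, Hoxc5 and Hoxc8 passed in both genotypes in the fit above and in all 13 alternatives run (other processing, or 1 embryo left out). In wild-type cells 6 of the 10 members still passed without wild-type embryo 3, where Hoxa9 was among those lost. Hoxc6 and Hoxc10 were lost whenever any wild-type embryo was left out (adjusted p over all alternatives 2.43e-04 to 0.143 and 1.15e-05 to 0.109). The same range was 0.00253 to 0.0609 for Hoxa2, lost without wild-type embryo 2, and 0.00159 to 0.125 for Hoxa5, lost without embryo 1 or 2. It was 2.37e-05 to 0.0589 for Hoxa9 and 0.00730 to 0.151 for Hoxc4, which was lost without wild-type embryo 1 or 3, without knock-out embryo 2 and after a repeated quantile normalization.

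In knock-out cells Hoxa2, Hoxa5, Hoxa9 and Hoxc4 also passed in all alternatives. Hoxa10 was lost in 8 of 13 of them (adjusted p 6.04e-04 to 0.271), Hoxc10 in 6 (2.98e-05 to 0.230), Hoxc6 in 3 (2.48e-04 to 0.182) and Hoxd9 without knock-out embryo 2 (0.00153 to 0.151). No member that passed at 10 h changed its direction in any alternative, and members that did not pass were not followed in this way.

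With the embryo as a replicate block, so that each 10 h culture is set against the untreated culture of the same animal, all these calls held and more genes passed, among the members and among all genes. In wild-type cells 14 passed, the added ones being Hoxa4 (adjusted p = 0.0201), Hoxa10 (0.00904), Hoxb3 (0.0271) and Hoxd13 (0.0305), all lower, where 40.1% of all genes passed. In knock-out cells 16 passed, with Hoxa4 (0.0329), Hoxb3 (0.00741), Hoxd10 (8.94e-04) and Hoxd13 (0.00696) added, also lower, where 40.3% of all genes passed. In all 6 embryos 14 of the 27 members were lower at 10 h than untreated (24.6% of all genes were lower in all 6), and 2 were higher, Hoxb2 and Hoxb6 (19.3% of all genes). Those 14 are the genes named as lower in the unblocked fit of either genotype with Hoxa4, Hoxb3 and Hoxd10.

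By paralogue number, in the fit without the block, genes numbered 4 to 8 fell most often: 6 of 11 tested in wild-type cells and 6 of 11 in knock-out cells, with median log2 differences of -0.65 and -0.65. Of the genes numbered 9 to 13, 2 of 12 fell in wild-type cells and 4 of 12 in knock-out cells, with medians of -0.20 and -0.45. Of all genes 18.8% fell in wild-type and 20.7% in knock-out cells. The block narrowed this contrast. It added Hoxa4 to the fallen genes numbered 4 to 8 in both genotypes. To those numbered 9 to 13 it added Hoxa10 and Hoxd13 in wild-type cells and Hoxd10 and Hoxd13 in knock-out cells. Of the 4 tested genes numbered 1 to 3, Hoxa2 fell, Hoxb2 rose, and Hoxa3 and Hoxb3 did not pass, although Hoxb3 passed with the block. Over the 27 genes the Spearman correlation of the change with paralogue number was -0.02 in wild-type and -0.04 in knock-out cells. Genes are not independent, and differences between clusters or number groups were not tested.

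Paralogues of different clusters were set side by side in the fit without the block. Of the number 2 genes Hoxa2 fell and Hoxb2 rose. Among the number 4 genes Hoxc4 fell, while Hoxa4 and Hoxb4 did not pass, and among the number 5 genes Hoxa5 and Hoxc5 fell while Hoxb5 did not pass. Of the number 6 genes Hoxc6 fell and Hoxb6 did not pass, and of the number 8 genes Hoxc8 fell and Hoxd8 did not pass. Of the number 9 genes Hoxa9 fell in both genotypes and Hoxd9 in knock-out cells, while Hoxb9 and Hoxc9 did not pass. Of the number 10 genes Hoxc10 fell in both genotypes and Hoxa10 in knock-out cells, while Hoxd10 did not pass. None of the tested genes numbered 3, 11 or 13 passed. A gene that passed and its paralogue that did not are not thereby shown to differ, and that difference was not tested.

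For Hoxa5, Hoxa9, Hoxc5 and Hoxc6 other tested probe sets gave smaller differences in the same direction. The second Hoxa5 probe set gave -0.30 ± 0.13 in wild-type and -0.52 ± 0.13 in knock-out cells, and the second Hoxa9 probe set -0.49 ± 0.21 and -0.43 ± 0.21. The other Hoxc5 probe sets gave -0.80 and -0.36 in wild-type and -0.65 and -0.47 in knock-out cells. For Hoxc6 they gave -0.52 and -0.34 in wild-type and -0.63 and -0.47 in knock-out cells. Of these 6 probe sets, with adjustment over all probe sets, 1 of Hoxc6 passed in wild-type cells (adjusted p = 0.0162) and that of Hoxa5 and the same one of Hoxc6 in knock-out cells (0.00877 and 0.00200). A dimmer Hoxa3 probe set passed in knock-out cells with -0.52 (0.00958), where the brightest one gave -0.07 ± 0.09 and did not pass. The probe sets used for Hoxc6, Hoxa10 and Hoxb6 carry name suffixes by which Affymetrix marks probes that may match more than 1 transcript. So do the second Hoxa5 probe set and the dimmer Hoxa3 probe set that passed in knock-out cells.

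The partners and regulators of Hox genes were read from lists. Over all genes 18.8% fell and 14.9% rose in wild-type cells, and 20.7% and 13.9% in knock-out cells. Of 10 tested genes of the TALE list, 3 fell and 1 rose in wild-type cells, and 4 fell and 2 rose in knock-out cells. This list also holds Tgif1 and Tgif2, which are outside the Pbx, Meis and Pknox families named above. Tgif1, named after its values were seen, was 1 of the 2 that rose in knock-out cells (1.10, limma adjusted p = 0.00208). Meis1 fell, with log2 differences of -1.05 in wild-type and -1.06 in knock-out cells (adjusted p = 1.60e-04 and 1.31e-04). Meis2 fell, with -1.46 and -1.66 (4.08e-04 and 1.21e-04), and so did Pbx2, with -0.48 and -0.64 (0.00425 and 4.52e-04). Pknox2 rose, with 0.96 and 1.12 (9.41e-05 and 2.13e-05). Meis and Pbx proteins bind DNA with Hox proteins, and Pknox2 is a member of the Prep branch of the family.

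Of 28 tested regulators of Hox expression, 11 fell and 5 rose in wild-type cells, and 12 fell and 6 rose in knock-out cells, with list medians of -0.13 and -0.18, to be read against the same shares of all genes. Egr2, which switches on Hoxb2 in the hindbrain, rose by 3.56 on the log2 scale in wild-type and by 3.79 in knock-out cells (adjusted p = 1.52e-09 and 7.39e-10). Rarb, a retinoic acid receptor, fell, with differences of -2.64 and -2.53 (9.26e-10 and 1.36e-09). Genes of the Polycomb group, whose products keep Hox genes silent, went both ways, but more of those that passed fell than rose. Bmi1 fell, with -0.89 and -0.75 (2.14e-05 and 8.96e-05) and so did Ezh2, with -0.86 and -0.92 (1.06e-04 and 5.19e-05). Rnf2 (-0.41 and -0.46), Phc1 (-0.53 and -0.38), Cbx2 (-0.46 and -0.71) and Jarid2 (-0.49 and -0.63) also passed lower in both genotypes. Ezh1 passed lower in knock-out cells only (-0.33), and Ring1, Pcgf2 and Suz12 did not pass. Eed rose with 0.67 and 0.77 (5.01e-04 and 1.26e-04) and Phc2 with 0.50 and 0.38 (0.00282 and 0.0156). All these genes from Rnf2 to Phc2 are named here after their values were seen. Rxra, the partner of retinoic acid receptors, fell, with -0.34 and -0.67 (0.0160 and 8.07e-05). The other retinoic acid receptors of the list, named after their values were seen, went both ways. Rarg fell, with -0.45 and -0.66 (0.0125 and 9.18e-04). Rara was higher, with 0.46 and 0.53, and passed in knock-out cells only (0.0555 and 0.0262). Of the other genes of the clusters, 1 of 4 fell in wild-type cells, Skap2 (-0.76, adjusted p = 0.00330), and 2 of 4 in knock-out cells, Skap2 (-0.58, 0.0166) and Mtx2 (-0.43, 0.0149).

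Markers of other cell types were read beside these changes. None of 10 tested macrophage and blood cell markers passed at 10 h in either genotype, and the mean level of the 11 such genes on the array was 9.0 untreated and 8.80 at 10 h in wild-type cells and 8.51 and 8.45 in knock-out cells. Their standard errors in this fit without the block were wide, from 0.56 for Lyz2 to 0.73 for Tyrobp. Cd14 at -0.89 ± 0.70 in wild-type cells did not pass (limma adjusted p = 0.348), so these results do not show unchanged levels. Of the 12 fibroblast markers Pdgfra (-2.48) and Lum (-1.34) fell in wild-type cells and Pdgfra (-2.57) in knock-out cells. The fibroblast list mean was 12.03 to 12.18 untreated and 11.58 to 11.78 at 10 h in wild-type arrays, and 11.74 to 11.98 and 11.45 to 11.73 in knock-out arrays. In wild-type cells 1 of 5 epithelial, 1 of 3 neural, the 1 tested muscle and 1 of 4 cartilage markers rose, and none of 2 endothelial ones passed. In knock-out cells 2 of 5 epithelial and 1 of 3 neural markers rose and none of the 1 muscle, 4 cartilage and 2 endothelial markers passed. Their part in the Hox changes was not tested.

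After 1 h no Hox gene passed in either genotype in the limma fit, where 0.585% of all genes passed in wild-type and 0.490% in knock-out cells. An unadjusted p below 0.05 was seen for 2 members in each. Hoxb2 had the smallest p in both: it was 0.61 ± 0.16 higher in wild-type cells (adjusted p = 0.183) and 0.50 ± 0.16 in knock-out cells (0.540), and its 1 h values lay above all untreated values of their genotype. The others were Hoxa3 in wild-type cells at 0.22 ± 0.09 and Hoxb6 in knock-out cells at 0.28 ± 0.12. Next came Hoxc8 (0.27 ± 0.16) in wild-type and Hoxc8 (0.29 ± 0.16) in knock-out cells. Over embryos, 4 members were higher at 1 h in all 6: Hoxb2, Hoxb4, Hoxc5 and Hoxc8, against 5.20% of all genes. None was lower in all 6, against 5.59%. The median difference of the tested Hox genes was 0.05 in both genotypes, against -0.01 for all genes in each.

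Set against 1 h instead of untreated cells, which uses the same 10 h arrays, 12 members passed in wild-type cells at 10 h, 11 of them lower and Hoxb2 higher (44.4%, against 33.3% of all genes). In knock-out cells 14 passed, 13 of them lower and Hoxb2 higher (51.9%, against 33.4%). These counts changed when 1 embryo was left out, which also leaves fewer arrays. Without wild-type embryo 1 or 2 the first count was 6, and without embryo 3 it was 7. Without knock-out embryo 1 the second count was 8. The cause of these losses was not tested.

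Between the genotypes as labelled, no Hox gene passed in untreated cells, at 1 h, at 10 h or over the embryo means in limma, and the background was 0 of 13679 genes in each of these comparisons. Unadjusted p below 0.05 was seen for 0, 1, 1 and 1 of the 27 members. The smallest p in untreated cells was that of Hoxd9, 0.29 ± 0.15 higher in knock-out cells. At 1 h it was that of Hoxb6, 0.33 ± 0.12 higher, and at 10 h that of Hoxd8, 0.47 ± 0.21 higher (adjusted p = 0.924). The next smallest were Hoxd10 (0.55 ± 0.31) and Hoxa3 (0.14 ± 0.09) in untreated cells, Hoxd10 (0.48 ± 0.31) and Hoxa10 (0.54 ± 0.40) at 1 h and Hoxb6 (0.23 ± 0.12) and Hoxc8 (-0.18 ± 0.16) at 10 h. Over embryo means they were Hoxb6 (0.25 ± 0.08), Hoxd8 (0.27 ± 0.14) and Hoxb5 (0.20 ± 0.11). In untreated cells the differences ran from -0.15 to 0.55 over the 27 genes. Their 95% intervals stayed within a 2-fold change for 22 of 27 genes in untreated cells, 23 at 1 h, 26 at 10 h and 25 over embryo means. For the rest a 2-fold difference lies inside the interval. With the embryo number as a replicate block across genotypes, still no member passed in untreated cells, at 1 h or at 10 h.

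The responses to TGF-β1 were not shown to differ between genotypes either: no member and no gene of the 13679 passed the test of that difference at 1 h or 10 h in limma, and no member had an unadjusted p below 0.05. The smallest p at 1 h were those of Hoxa3 (-0.23 ± 0.12), Hoxc4 (-0.34 ± 0.30) and Hoxb6 (0.15 ± 0.17), and at 10 h those of Hoxc9 (-0.24 ± 0.16), Hoxa3 (-0.18 ± 0.12) and Hoxd9 (-0.29 ± 0.22). At 10 h the difference of the responses (knock-out minus wild type) ran from -0.39 to 0.34, and it was below 0 for 20 of 27 genes. Its median was -0.12 for these genes and -0.03 for all genes, which also lies below 0, and genes of a cluster are not independent. The interval of this difference stayed within a 2-fold change for 20 of 27 genes, and at 1 h for 23.

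Hox genes also differed between embryos of the same genotype. The test asked whether the 3 cultures of an embryo, under 3 conditions, sat together away from those of the other embryos of its genotype. In this F-test with limma 9 of 27 members passed (33.3%), where 5.96% of all genes passed. They were Hoxc10, Hoxd10, Hoxa11, Hoxd13, Hoxa9 and Hoxa10, all numbered 9 to 13, and Hoxc5, Hoxc6 and Hoxa7. By number, 0 of 4 genes numbered 1 to 3, 3 of 11 numbered 4 to 8 and 6 of 12 numbered 9 to 13 passed. The 3 cultures of an embryo share its dissection and growth, so an embryo and its culture cannot be told apart.

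Wild-type embryo 1 was low in the 5' genes of the Hoxa and Hoxd clusters. Hoxd13, which shapes the digits, read 5.78, 7.24 and 7.48 untreated, 5.53, 7.59 and 7.55 at 1 h and 4.90, 6.93 and 6.54 at 10 h in wild-type cells. Its values in knock-out cells were 7.42, 6.40 and 7.27 untreated, 7.08, 6.51 and 7.17 at 1 h and 5.98, 6.43 and 5.86 at 10 h. The 3 values of wild-type embryo 1 lay below all other values, and its mean minus that of the other wild-type embryos was -1.82 (F-test adjusted p = 0.00156).

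Hoxa11, needed for the forearm and lower leg, read 5.38, 6.57 and 6.78 untreated, 5.61, 6.43 and 6.65 at 1 h and 5.46, 6.57 and 6.24 at 10 h in wild-type cells. The knock-out embryos read 6.57, 6.26 and 6.73 untreated, 6.76, 6.20 and 6.68 at 1 h and 5.98, 6.11 and 6.41 at 10 h. Again the 3 values of wild-type embryo 1 were the lowest of the 18 (adjusted p = 0.00132).

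Hoxd10, of the hindlimb and lumbar cord, read 5.25, 6.38 and 6.39 untreated, 5.48, 6.54 and 6.31 at 1 h and 5.23, 5.88 and 6.14 at 10 h in wild-type cells. For knock-out cells the values were 6.62, 6.75 and 6.30 untreated, 6.42, 6.85 and 6.51 at 1 h and 5.89, 5.94 and 5.90 at 10 h. Here too wild-type embryo 1 gave the 3 lowest values (adjusted p = 0.00112). Hoxa10 and Hoxa9, whose arrays are given above, had wild-type embryo means of 5.22, 6.33 and 6.53 and of 7.78, 8.38 and 8.51 (adjusted p = 0.00686 and 0.00248), with embryo 1 the lowest in each condition.

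Of the 12 tested members numbered 9 to 13, wild-type embryo 1 was the lowest wild-type embryo in all 3 conditions in 8 (66.7%): Hoxa9, Hoxa10, Hoxa11, Hoxc10, Hoxd9, Hoxd10, Hoxd11 and Hoxd13. The same held for 1 of 11 numbered 4 to 8, Hoxd8, and for 0 of 4 numbered 1 to 3, and for 9.80% of all genes. The median difference between embryo 1 and the mean of the other wild-type embryos was -0.51 for numbers 9 to 13, 0.05 for 4 to 8, 0.14 for 1 to 3 and -0.02 for all genes. The exceptions among the high numbers were Hoxa13, Hoxb9, Hoxc9 and Hoxc13. By embryo means, embryo 1 was the lowest wild-type embryo for 10 of the 12 members numbered 9 to 13 (83.3%) and for 43.8% of all genes. These counts were made for embryo 1 alone after its low values were seen, and genes of a cluster are not independent. They describe the pattern and do not test it.

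**Figure D3:**
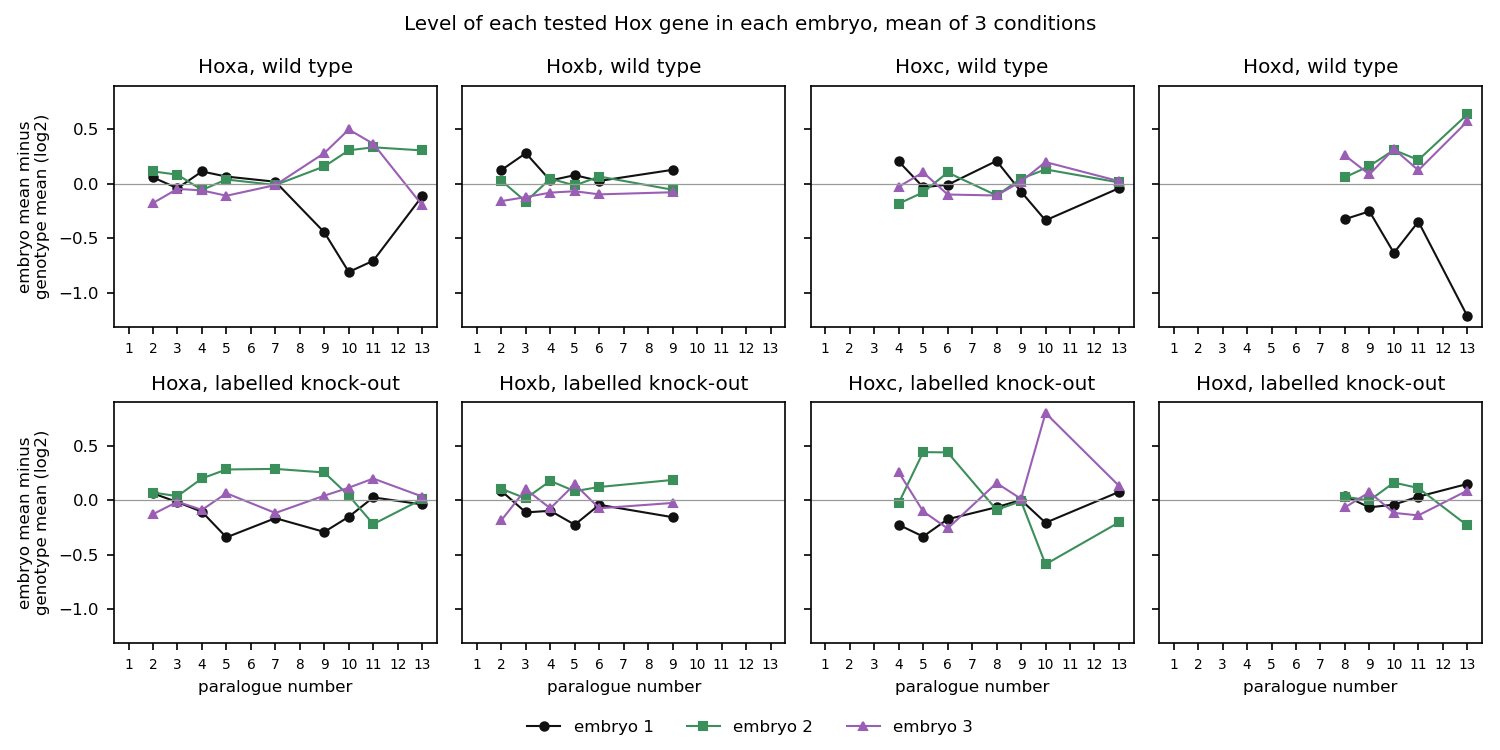
Level of each tested Hox gene in each embryo, as the mean of its 3 conditions minus the mean of the 3 embryos of its genotype (vertical axis, log2), against paralogue number (horizontal axis), by cluster, with wild type above and the labelled knock-out below. In wild type, embryo 1 (black) falls below the others from Hoxa9 to Hoxa11 and along the Hoxd cluster to Hoxd13. In the knock-out, embryo 2 (green) is highest at Hoxc5 and Hoxc6 and lowest at Hoxc10.

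Knock-out embryos differed in some genes of the Hoxc and Hoxa clusters, while Hoxc4, Hoxc8, Hoxc9 and Hoxc13 did not pass the F-test. Hoxc10 had the smallest p of the members (adjusted p = 2.28e-04): its embryo means were 6.94, 6.55 and 7.94 in knock-out and 6.86, 7.33 and 7.40 in wild-type cells, and knock-out embryo 3 was the highest of its genotype in every condition. Hoxc6 and Hoxc5 had knock-out means of 8.21, 8.82 and 8.13 and of 6.95, 7.72 and 7.18 (adjusted p = 0.00498 and 0.00562), and Hoxa7 of 7.37, 7.83 and 7.42 (0.0327). In these 3 genes embryo 2 was the highest of its genotype in every condition. Wild-type means of Hoxa7 differed by 0.03 at most.

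Genes that mark limb position were read from a list beside this result. Of 11 tested, 4 passed the same test: Pitx1, Tbx4, Lhx9 and Tbx18. Pitx1, which specifies the hindlimb, had embryo means of 6.75, 7.22 and 7.42 in wild-type and 6.79, 5.31 and 7.41 in knock-out cells (adjusted p = 2.28e-06). Tbx4, its target in the hindlimb, had 5.01, 5.98 and 6.20 in wild-type and 5.61, 4.33 and 5.82 in knock-out cells (2.39e-05). Knock-out embryo 2 was the lowest of the 6 in both, as it was for Hoxc10, and wild-type embryo 1 was the lowest wild-type embryo. Of the 11, 2 rose and 1 fell at 10 h in wild-type cells and 1 rose in knock-out cells. Tbx5, which specifies the forelimb, ran from 5.44 to 5.83 over the 6 embryos and did not pass (0.0990).

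Macrophage markers differed between embryos too. Of 10 tested, 9 passed, all but Cd14, and the mean of the 11 such genes on the array was 9.84, 8.42 and 8.51 in wild-type and 9.31, 7.81 and 8.23 in knock-out cells. Over single arrays the mean was 9.74 to 9.93 in wild-type embryo 1, 8.07 to 8.60 in wild-type embryos 2 and 3, 9.16 to 9.42 in knock-out embryo 1 and 7.73 to 8.30 in knock-out embryos 2 and 3. Knock-out embryo 1 had high macrophage markers and Hoxd13 at 6.83, Hoxa11 at 6.44 and Hoxd10 at 6.31, against 5.40, 5.48 and 5.32 in wild-type embryo 1. The fibroblast list mean ran from 11.72 to 12.02 over embryos, and 1 of its 12 genes passed, as did 1 of 5 epithelial, 1 of 4 cartilage and none of the neural, muscle and endothelial markers. The part of other cell types in the embryo differences was not tested.

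**Figure D4:**
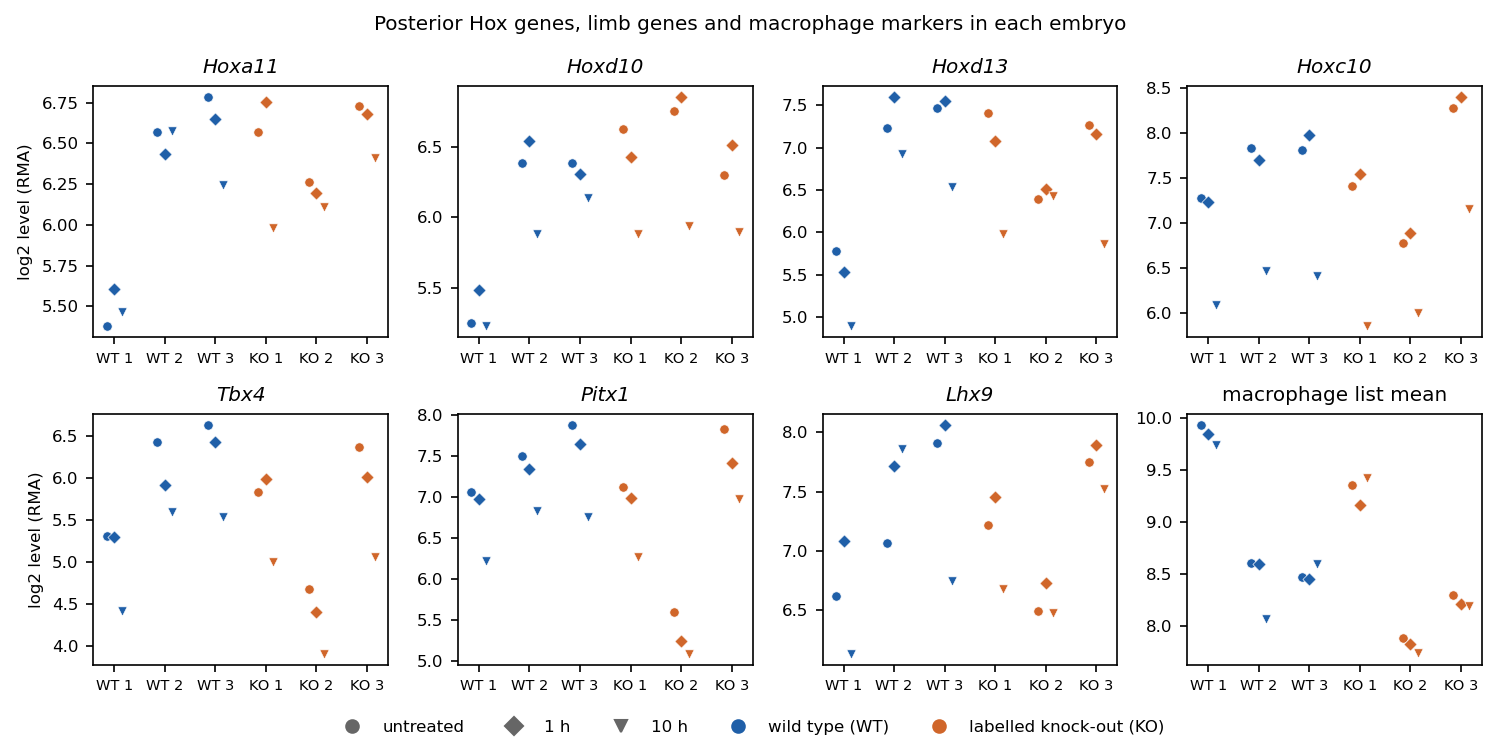
Log2 level (vertical axis) on every array, by embryo (horizontal axis, WT 1 to WT 3 and KO 1 to KO 3), for 4 posterior Hox genes, 3 limb genes and the mean of the macrophage marker list. Blue is wild type, orange the labelled knock-out, and the marker shape gives the condition. Wild-type embryo 1 is lowest in Hoxa11, Hoxd10 and Hoxd13, knock-out embryo 2 is lowest in Pitx1 and Tbx4, and embryo 1 of each genotype is high in the macrophage mean.

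The embryo result rests partly on wild-type embryo 1. Without it 3 members passed, Hoxc10, Hoxc6 and Hoxc5. Tested within wild type alone, 4 members passed, against 2.18% of all genes: Hoxd13, Hoxd10, Hoxa11 and Hoxa10. Within knock-out alone, 5 passed, against 6.44%: Hoxc10, Hoxa9, Hoxc6, Hoxc5 and Hoxa7. With the untreated and 1 h arrays only, 19 of 27 passed, against 23.2%. These 3 tests were chosen after the data were seen.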

How the data were processed

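Total RNA from the 18 cultures was biotin-labelled and hybridised to Affymetrix mouse arrays, 1 array per culture. The authors deposited log2 values for 45101 probe sets, summarised with RMA (no version is given) per the submitters' processing notes. This method equalises the distribution of values over arrays, so a shift of all genes together cannot be seen. Array medians were 4.74 to 4.81. The annotation gave 34958 probe sets 1 symbol, 932 several and 9211 none.

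From these values each gene was taken as its brightest probe set, and 13679 genes above the 40th percentile of at least 3 arrays went into a limma fit (limma 3.58.1, R 4.3.3; 6 group means, 12 residual degrees of freedom, two-sided, Benjamini-Hochberg adjustment over all tested genes, threshold 0.05). Embryo differences were tested with limma's F-test on 4 embryo terms. Tables and figures used Python 3.11.15 with pandas 2.3.3 and matplotlib 3.10.9. The script was tested on simulated data. The number of arrays limits the precision.

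Per the labels, cultures of 1 genotype with equal numbers come from 1 embryo, and embryo was also fitted as a replicate block (8 residual degrees of freedom). Deviations from the group mean correlated at 0.59 to 0.76 between the untreated and 1 h cultures of an embryo. Between untreated and 10 h they correlated at 0.49, -0.06 and -0.20 in wild-type embryos 1, 2 and 3. In knock-out embryos 1, 2 and 3 the values were 0.39, 0.34 and 0.28.

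Values per array are given for members that passed a treatment or genotype comparison (up to 12) and for the 6 with the smallest adjusted p in the embryo test. Where no member passed, the 3 with the smallest p are given, and for cofactors and regulators up to 4 per comparison. Bmi1, Ezh2 and Rxra meet this in at least 1 genotype. Members, gene lists and marker lists were chosen with earlier results of these data known.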

Additional observations from a re-analysis of the deposited data

Results flagged for a closer look

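Hoxd9 moved in opposite directions at 1 h in the 2 genotypes, and this drew attention because every embryo followed it: the changes were 0.04, 0.06 and 0.02 in wild-type and -0.03, -0.20 and -0.02 in knock-out embryos. The mean response of knock-out minus wild-type cells was -0.12. In limma the test of that difference did not pass (adjusted p = 1.00), and the changes are small beside the standard error of 0.22.

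Probe sets outside the 33 members also gave a signal at 10 h in knock-out cells. A probe set shared by Hoxd4 and Hoxd3 changed by -0.37 (limma adjusted p = 0.0197), where wild-type cells gave 0.18 (0.237). The antisense transcript Hoxb5os changed by -0.66 (0.0105), with -0.30 (0.218) in wild-type cells, and Hoxd3os1 by -0.67 (0.0466), with -0.53 (0.110). The difference between the genotypes was not tested for these 3 probe sets.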

How the results depend on the processing

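Counts of members that passed were recomputed without a filter, with a filter at the array median, after repeated quantile normalization, with a trended robust prior, with all probe sets, with embryo as a random effect or as a replicate block, and without each embryo. Leaving out 1 embryo gave 6 to 10 at 10 h against untreated in wild-type cells (10 with all) and 9 to 13 in knock-out cells (12 with all). Against 1 h it gave 6 to 11 in wild-type (12 with all) and 8 to 17 in knock-out cells (14 with all). For the embryo test it gave 3 to 10 (9 with all). Chosen after the data were seen, the embryo test gave 19 without the 10 h arrays, 4 within wild type alone and 5 within knock-out alone. With the replicate block the counts at 10 h were 14 and 16 against untreated and 16 and 18 against 1 h, where 40.1% and 40.3%, and 38.8% and 38.7%, of all genes passed, and the block changed no other call. Embryos with the same number in both genotypes share only a number by the labels, but their deviations correlated at 0.35, 0.54 and 0.07 untreated, 0.47, 0.49 and 0.10 at 1 h and 0.13, -0.20 and -0.02 at 10 h, and a shared preparation was not tested. Single members were followed only in comparisons that they passed with all arrays, so added calls are not in the next counts. Of these alternative values 630 still passed, 82 no longer passed and 0 changed direction, where values of the embryo test have no direction. The cause of these losses was not tested.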
